A study of Mus musculus with 10 samples.

Results

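The genes described here are the mucins and the Clca genes that an earlier look at these libraries had singled out: Muc5ac, Muc5b, Muc1, Muc4, Muc20, Gm9573, Clca2 and Clca3b. They were found by gene symbol in a table of 24421 genes, and Gm9573 is the older symbol of mouse Muc21. Of 9 genes named for the set, Muc16 is not analysed here, which leaves 8. The set holds 2 gel-forming mucins (Muc5ac and Muc5b), 4 transmembrane mucins (Muc1, Muc4, Muc20 and Gm9573) and 2 Clca genes. RNA-seq counts were available for 5 libraries of normal lung from untreated mice and 5 libraries of lung squamous cell carcinoma (SCC) from mice given NTCU, a nitrosourea carcinogen. All mice were wild type and of the NIH Swiss stock, and no age was used. Regions were laser-captured from formalin-fixed, paraffin-embedded sections, and total RNA was made into libraries with a stranded kit for very small inputs.

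Which libraries came from which animal is not stated in the labels. The p-values given for other genes thus rest on the variation from library to library, part of which may be technical, and would be too small if an animal gave several regions. The genes were chosen with the difference between SCC and normal lung in view. Their own values in that comparison are given as a description, with no test.

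Mucins are large glycoproteins whose serine-, threonine- and proline-rich stretches carry dense O-linked sugars. Gel-forming mucins are secreted, are joined end to end through cysteine-rich domains and make up the airway mucus. Transmembrane mucins stay anchored in the apical membrane, where they form a barrier and can take part in signalling. Clca proteins are metal-dependent proteases that cleave themselves and modulate chloride channels. Clca1 is the family member best known from mucus-secreting goblet cells.

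Library totals ran from 1004105 to 6817106 counts. A set of 1438 chemosensory receptor genes was assumed to have little or no expression in lung. Signal on these genes was 0.0415 to 0.205 CPM (counts scaled to the library total) per kb of coding length in normal lung. It was 3.27 in SCC 1, 0.588 in SCC 2, 3.3 in SCC 3, 3.51 in SCC 4 and 0.42 in SCC 5. A background proportional to this signal and to transcript length was estimated for every gene, and its share of a gene's SCC counts is given below. The squamous and basal marker list (9 genes) summed to 1.43 to 8.23 CPM in normal lung, against 1040 to 7500 CPM in SCC, and Krt13, Krt6a, Dsg3 and Sprr1a had no count in normal lung. The alveolar type 2 list (7 genes) summed to 7180 to 10400 CPM in normal lung, against 410 to 738 CPM in SCC. Fewer cells of a type and less RNA per cell cannot be told apart in such bulk libraries.

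Of the 8 genes, 6 lay above every normal library in every SCC library, and none lay below. Among all 13203 genes tested, 8.81% lay above in this way and 5.77% below. The same 6 genes were past the adjusted p threshold of 0.05 in the all-gene fit and higher in SCC, against 12.5% of all genes, and none was past it and lower, against 8.68% (21.1% in either direction). The genes were chosen on this contrast, so nothing is read from these counts. Muc5b and Muc1 were the pair whose groups overlapped.

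**Figure D1:**
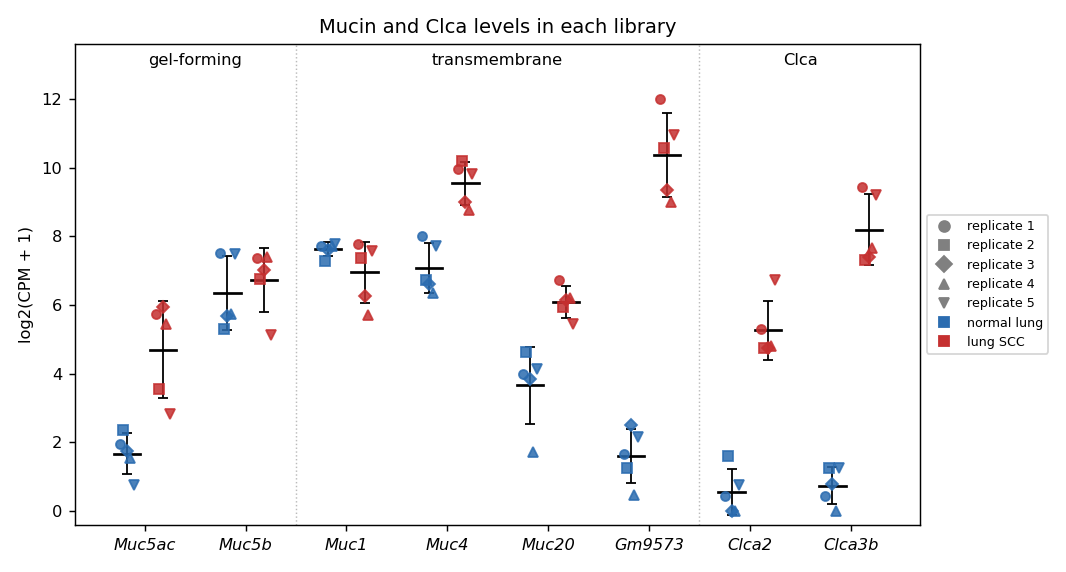
Level of each gene in each library as log2(CPM + 1), with normal lung in blue and lung SCC in red, marker shapes for the replicate number, and bars for the mean and SD over 5 libraries. Red and blue points overlap for Muc5b and Muc1 and are apart for the other genes, with the widest gaps at Gm9573 and Clca3b.

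The gel-forming mucins Muc5ac and Muc5b lie next to each other on chromosome 7. Muc5ac (chr7:141788972-141819231, plus strand) encodes an inducible gel-forming mucin of surface goblet cells. It was read at 2.86, 4.1, 2.35, 1.93 and 0.686 CPM in normal 1 to normal 5, and at 51.9, 10.8, 60.6, 42.8 and 6.12 CPM in SCC 1 to SCC 5. All 5 SCC libraries lay above all 5 normal ones, and the 3 high values were those of the SCC libraries with high receptor signal. The means were 2.39 ± 1.25 CPM in normal lung and 34.4 ± 24.6 CPM in SCC (SD, n = 5 each), a fitted log2 difference of 3.69 (SE 0.75). The estimated background equalled 66.2% of the SCC counts of Muc5ac, from 58.3% in SCC 2 to 88.2% in SCC 4. The log2 difference was 1.67 when the tumour group held only SCC 2 and SCC 5. After subtraction of the background Muc5ac no longer passed the filter on low counts, and its SCC levels were 16.7, 4.52, 25.1, 5.07 and 1.61 CPM, so that SCC 5 lay within the normal range, whose highest value after subtraction was 2.52 CPM.

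Muc5b (chr7:141839070-141873084, plus strand) encodes the gel-forming mucin made constitutively in airways and glands. Its levels were 181, 38.3, 50.2, 52.8 and 180 CPM in normal lung and 163, 107, 130, 169 and 34.3 CPM in SCC. The groups overlapped over most of their range, with normal 1 and normal 5 highest and SCC 5 lowest. The fitted log2 difference was 0.14 (SE 0.46), and leaving out 1 library at a time moved it between -0.3 and 0.33. The value was 0.2 after subtraction and -0.64 in the fit on SCC 2 and SCC 5. Background equalled 22.9% of its counts over the 5 SCC libraries.

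The transmembrane mucins differed among themselves. Muc1 (chr3:89229057-89233381, plus strand) encodes the short, broadly expressed transmembrane mucin of lung epithelium. Normal lung gave 209, 156, 194, 211 and 220 CPM, and SCC gave 218, 166, 76.5, 51.8 and 191 CPM. The normal libraries were close together, while SCC 3 and SCC 4 lay below all of them and the other SCC libraries within their range. The fitted log2 difference was -0.61 (SE 0.39), and -0.27 with SCC 2 and SCC 5 alone. Highest and lowest library differed 1.41-fold in normal lung and 4.21-fold in SCC.

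Muc4 (chr16:32735886-32782391, plus strand) encodes a very large transmembrane mucin known as a partner of the receptor kinase ErbB2. It was read at 259, 105, 97.3, 79.9 and 208 CPM in normal lung and at 990, 1180, 508, 438 and 892 CPM in SCC. Each SCC library lay above each normal library, with SCC 3 and SCC 4 lowest of the tumours. Mean levels were 150 ± 79.1 and 802 ± 320 CPM (SD, n = 5 each), a log2 difference of 2.31 (SE 0.44). The difference was 2.68 with SCC 2 and SCC 5 alone, and background equalled 2.04% of the SCC counts.

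Muc20 (chr16:32777419-32797435, minus strand) encodes a transmembrane mucin known to bind the receptor kinase Met. Levels of 15, 23.9, 13.3, 2.31 and 16.5 CPM in normal lung compared with 105, 60.1, 69.4, 72.7 and 42.9 CPM in SCC. The groups did not overlap, and normal 4 stood below the other normal libraries. The log2 difference was 2.19 (SE 0.49), or 1.74 with SCC 2 and SCC 5 alone. Exons of Muc4 and Muc20 overlap on opposite strands over 627 bases, which is 5.33% of the exon length of Muc4 and 15.6% of that of Muc20. The sources used here do not give the strand setting of the counting, so the reads of the overlap cannot be assigned with certainty. Muc4 had the higher CPM of the pair in every library.

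Gm9573 (chr17:35617923-35626637, minus strand) is mouse Muc21, which encodes a transmembrane mucin built almost wholly of a repeat, first known as epiglycanin of mammary carcinoma cells. It was read at 2.15, 1.37, 4.69, 0.386 and 3.43 CPM in normal lung, 46 counts in all. In SCC it reached 4060, 1530, 651, 511 and 1980 CPM, 16491 counts in all. Every SCC library lay far above every normal one, and within the tumours SCC 1 was highest and SCC 3 and SCC 4 lowest. The fitted log2 difference was 9.3 (SE 0.76), and it stayed between 8.72 and 9.73 when 1 library was left out. It was 9.26 with SCC 2 and SCC 5 alone, and background equalled 0.513% of the SCC counts.

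The Gm9573 coding sequence is dominated by a repeated unit of 45 bases, a whole number of codons. Stretches in which most bases recur at this period cover 82.5% of its 4818 coding bases, and the first unit is found in 8 exact copies. The 5 neighbouring copies from the GENCODE M21 transcript (GRCm38) show how alike they are, with capitals where a copy differs from the first:
Gm9573 copy 1: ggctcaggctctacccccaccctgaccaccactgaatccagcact
Gm9573 copy 2: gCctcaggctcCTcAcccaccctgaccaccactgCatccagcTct
Gm9573 copy 3: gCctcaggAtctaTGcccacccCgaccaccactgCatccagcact
Gm9573 copy 4: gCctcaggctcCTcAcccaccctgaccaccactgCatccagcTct
Gm9573 copy 5: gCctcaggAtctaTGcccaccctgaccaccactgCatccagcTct
Copies 2 to 5 each differ from the first at 6 of 45 bases. Because of this repetition, 39.2% of the 50-base words of the Gm9573 transcript occur in it more than once, though none is shared with another gene. Reads from the repeat can be placed within Gm9573 at several positions, and the sources used here do not say how such reads were counted.

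Serine, threonine and proline codons made up 69.1% of the Gm9573 codons, the highest share of the 8 genes. The share was 44.8% in Muc4, 44.1% in Muc1 and 43.5% in Muc20. Gel-forming mucins had 31.2% (Muc5ac) and 33.8% (Muc5b), and they held 255 and 301 cysteine codons, against 2 in Gm9573, 3 in Muc1, 4 in Muc20 and 48 in Muc4. Clca2 held 15 and Clca3b 11. Cysteine codons were thus most numerous in the gel-forming pair, also as a share of codons (7.38% in Muc5ac and 6.27% in Muc5b). The next highest share was 1.59%, in Clca2. Muc5ac holds a 48-base unit in 11 exact copies and Clca3b a 27-base unit in 15 exact copies, shown for comparison with the Gm9573 repeat:
Muc5ac unit: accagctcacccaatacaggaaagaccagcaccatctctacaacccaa
Clca3b unit: cccagcacccctcctggtctgagtacc
Stretches in which most bases recur at these periods covered 11% of the Muc5ac and 13.3% of the Clca3b coding sequence.

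The Clca genes Clca2 and Clca3b were near the floor of detection in normal lung. Clca2 (chr3:145070263-145099443, minus strand) encodes a membrane-anchored family member known from basal and stratified epithelia and as a p53 target. It had 0.358, 2.05, 0, 0 and 0.686 CPM in normal lung, 5 counts in all, and 38.7, 25.7, 25.9, 26.9 and 105 CPM in SCC. All SCC libraries lay above normal lung, and SCC 5 stood above the other tumours. The log2 difference was 6.48 (SE 0.91), 5.69 without SCC 5, 5.81 without normal 3 and 7.5 without normal 2. Background equalled 13.8% of the SCC counts over the group, and ranged from 1.6% in SCC 5 to 52.1% in SCC 4. With SCC 2 and SCC 5 alone the difference was 7.05.

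Clca3b (chr3:144822623-144849357, minus strand) encodes a rodent family member. Normal lung gave 0.358, 1.37, 0.733, 0 and 1.37 CPM, 10 counts in all, and SCC gave 687, 158, 167, 200 and 588 CPM, 3259 counts in all. Each SCC library exceeded each normal library by a wide margin, with SCC 1 and SCC 5 highest. The log2 difference was 8.89 (SE 0.7), or 8.98 with SCC 2 and SCC 5 alone, and background equalled 1.67% of the SCC counts. Of the 50-base words of its transcript, 5.98% are shared with Clca3a2 or Clca3a1, so a part of its reads may be uncertain between these genes.

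Clca2 and Clca3b belong to a run of 8 Clca genes over 370 kb of chromosome 3, all on the minus strand. Clca3a2, the neighbour of Clca3b, was read at 0.716, 0, 0.147, 0 and 2.74 CPM in normal lung and 12.3, 12.5, 18.7, 12.9 and 12.2 CPM in SCC. It rose by a log2 difference of 4.28 (SE 1.04, adjusted p = 0.00379), with background at 43.5% of its SCC counts and an adjusted p of 0.0584 with SCC 2 and SCC 5 alone. Without normal 5 the difference was 5.36. Clca1, the goblet cell member, was read at 3.58, 19.8, 0, 0 and 3.43 CPM in normal lung and 17, 5.96, 24.2, 14.9 and 14.3 CPM in SCC. Its groups overlapped and it did not pass the test (log2 difference 1.43, SE 1.01, adjusted p = 0.355). Clca3a1, Clca4a, Clca4b and Clca4c-ps had 99, 51, 52 and 37 SCC counts, were too low to be tested, and had background shares of 57.6%, 95.4%, 93.3% and 122%.

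**Figure D2:**
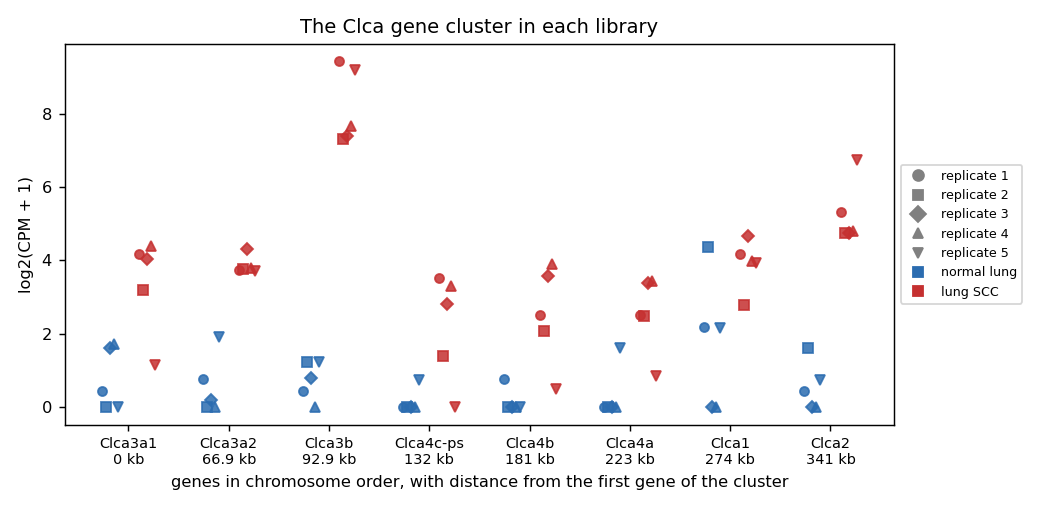
Levels of the 8 Clca genes of the chromosome 3 cluster as log2(CPM + 1) in each library, ordered by position, with the distance in kb from the first gene on the axis. Clca3b is the highest gene of the run in each SCC library, and its neighbour Clca3a2 reaches at most 18.7 CPM.

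Levels of different genes are compared per kb of coding length. With the length of all exons instead, 2 group means were lower by more than the SD over libraries, Muc1 in normal lung and Muc20 in SCC. The other 14 moved by less. In normal lung the order was Muc1 (105 CPM per kb), Muc4 (14.1), Muc5b (6.98), Muc20 (6.67), Gm9573 (0.499), Clca3b (0.245), Muc5ac (0.23) and Clca2 (0.219). Muc1 lay above Muc4 with no overlap of their ranges, and Muc20 above Gm9573 likewise, while every other pair of neighbours overlapped. In SCC the order was Gm9573 (362 CPM per kb), Clca3b (115), Muc4 (75.7), Muc1 (74.4), Muc20 (32.8), Clca2 (15.7), Muc5b (8.39) and Muc5ac (3.32), and every pair of neighbours overlapped. Even so, Gm9573 was the highest of the 8 in each of 5 SCC libraries and Muc1 in each of 5 normal libraries. Among 20035 genes ranked by level per kb, Gm9573 held ranks 12791 to 14709 in normal lung and ranks 43 to 528 in SCC. Clca3b moved from ranks 13808 to 14864 to ranks 291 to 2369, and Muc1 was at 920 to 1277 in normal lung, against 769 to 3845 in SCC.

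The make-up of the 6 mucins differed between the groups. Summed levels of the transmembrane mucins were 104 to 144 CPM per kb in normal lung (median 121) and 209 to 1100 in SCC (median 545), with no overlap. Summed gel-forming levels were 3.06 to 12.9 CPM per kb (median 3.86) and 2.97 to 16.3 (median 14.9), which overlapped. These sums are from before subtraction of the background. In SCC 1, SCC 3 and SCC 4, where the gel-forming sums were highest, background equalled 30%, 37.8% and 31% of the Muc5b level. For Muc5ac it equalled 67.9%, 58.6% and 88.2% in these libraries, so the SCC median is raised by background. Gm9573 took 0.0643% to 0.791% of the summed mucin level in normal lung and 47.1% to 75.5% in SCC. Muc1 took 71.2% to 89.9% in normal lung, against 10.3% to 16.3% in SCC. The gel-forming share was 2.86% to 8.26% in normal lung, against 0.48% to 7.09% in SCC, or 0.341% to 4.29% in SCC after subtraction of the background. These shares follow from the values that chose the genes and are a description. Dpcr1, another gene of the mucin family given further on, is not among the 6. Its means were 1950 CPM per kb in normal lung and 669 in SCC, above those of Muc1 and Gm9573. The sums and shares thus hold for the 6 mucins only.

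**Figure D3:**
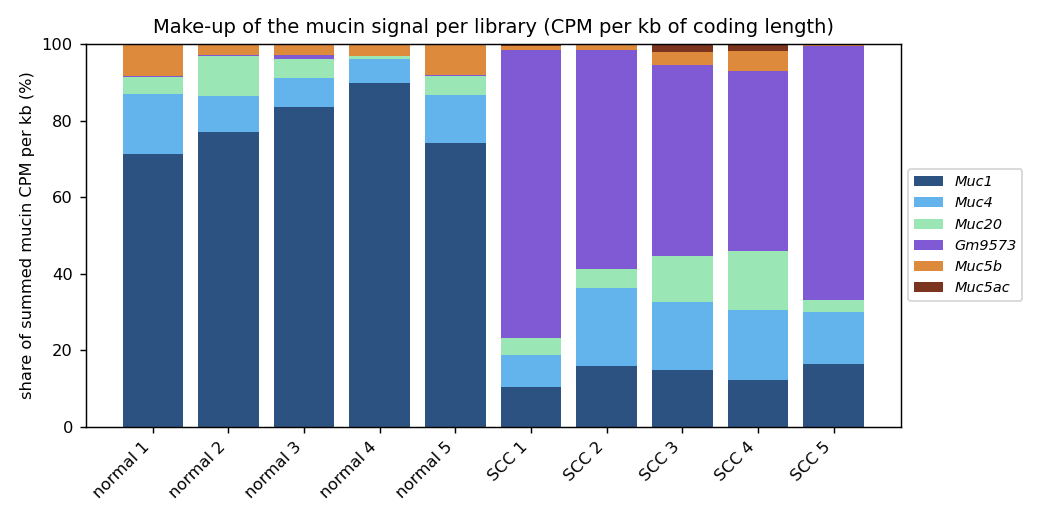
Share of each mucin in the summed CPM per kb of the 6 mucins, 1 bar per library, in percent. Muc1 fills 71.2% to 89.9% of the bars of normal lung, and Gm9573 47.1% to 75.5% of the bars of SCC.

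Sequence upstream of the start site was available from RefSeq (GRCm38.p6) for 6 of the 8 genes, not for Muc5ac and Muc5b. The TATA box letters TATAAA were searched on both strands over 250 bases, together with the AP-1 letters TGANTCA and the GC box letters GGGCGG. With positions counted back from the start site, TATAAA began at -31 in Muc1, at -36 in Muc4 and at -30 in Gm9573, and was in none of the others. Over all 32851 promoters of this length 12.4% hold TATAAA, and 2.36% hold it with its first base between -40 and -25. The 3 sequences that hold TATAAA are shown, from 2 genes whose groups did not overlap (Muc4 and Gm9573) and 1 whose groups did (Muc1), with TATAAA and GGGCGG in capitals:
Muc1 chr3:89228876-89229055: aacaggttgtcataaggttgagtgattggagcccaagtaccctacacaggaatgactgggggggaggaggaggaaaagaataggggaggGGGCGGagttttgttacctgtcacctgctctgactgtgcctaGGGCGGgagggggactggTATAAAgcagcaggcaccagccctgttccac
Muc4 chr16:32735706-32735885: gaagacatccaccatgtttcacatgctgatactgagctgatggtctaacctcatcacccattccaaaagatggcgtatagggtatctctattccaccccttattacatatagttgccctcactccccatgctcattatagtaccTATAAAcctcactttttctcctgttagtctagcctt
Gm9573 chr17:35626638-35626817: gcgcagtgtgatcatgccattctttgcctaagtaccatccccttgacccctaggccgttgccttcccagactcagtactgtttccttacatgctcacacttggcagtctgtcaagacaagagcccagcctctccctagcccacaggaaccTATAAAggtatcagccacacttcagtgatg
The Muc1 and Muc4 sequences are on the plus strand and that of Gm9573 on the minus strand. The GC box letters were found at -91 and -49 in Muc1 and at -244 in Gm9573, outside the stretch shown, and 32.7% of promoters hold it. The AP-1 letters were found once, at -58 from the RefSeq start of Clca3b, and 6.75% of promoters hold them. In the GENCODE model Clca3b starts farther upstream, and this match runs across that start. A match is a run of letters and not a measured site.

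Genes whose centred log2 profiles over the 10 libraries were nearest to each of the 8 were found by the root mean square difference, which is a description across libraries that share the group difference. Only genes that passed the filter on low counts were searched, and those with placeholder symbols (Gm, Rik, LOC, BC or AI names) were left out. Gm9573 could thus not be found as a neighbour of another gene. Gm9573 was nearest to Krt6a, a keratin of stratified epithelium (0.828 on the log2 scale), and to Clca3b (0.896). Clca3b was nearest to Dsg3, a desmosomal cadherin of squamous epithelium (0.598), and to Krt13 (0.648). For Clca2 they were Trp63, the basal cell transcription factor p63 (0.516), and Pitx1 (0.532). Muc4 was nearest to Bace2 (0.397) and Pcsk6 (0.42), and Muc20 to Aim1l (0.36) and Celsr2 (0.401). Muc5ac was nearest to Sytl3 (0.432) and Lincred1 (0.502), Muc5b to Fam222b (0.401) and Obfc1 (0.421), and Muc1 to Marf1 (0.219) and Fth1 (0.236).

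The marker lists of cell types went in both directions between the groups. The squamous list summed to 2920, 2250, 1040, 1420 and 7500 CPM in SCC 1 to SCC 5. It was highest in SCC 5, where Clca2 was also highest, while Gm9573, Clca3b and Muc20 were highest in SCC 1 and Muc4 in SCC 2. The mesothelial list (7 genes) summed to 34.7 to 89.1 CPM in normal lung, against 171 to 796 CPM in SCC, and 2 of 6 tested members rose and none fell. Those 2, Msln (7.1 to 191 CPM on average) and Upk1b (1.8 to 156 CPM), made up most of the SCC sum, while Rspo1, Upk3b and Nkain4 had lower means in SCC (7.46, 5.62 and 1.62 CPM) than in normal lung (23.9, 16.7 and 8.74 CPM) and did not pass the test. The gland and serous list (11 genes) summed to 1720 to 2140 CPM and 1930 to 8200 CPM, and 2 of 4 tested members rose and 2 fell. Ltf, lactoferrin, rose from a mean of 8.78 to 3340 CPM and Sox9 from 9.27 to 66.2 CPM, while the lysozymes Lyz1 (978 to 84.4 CPM) and Lyz2 (842 to 340 CPM), near-identical genes, fell. The club cell list (6 genes) summed to 9080 to 14300 CPM in normal lung, against 1130 to 4500 CPM in SCC, where 3 of 6 fell and none rose. The ciliated cell list (7 genes) summed to 240 to 381 CPM in normal lung, against 36.3 to 199 CPM in SCC. Of its 7 tested members 3 fell and none rose. The goblet cell transcription factor Spdef had 5 counts in all normal libraries and 52 in SCC, with background at 59.8% of the latter, and the trefoil factors Tff1, Tff2 and Tff3 had 0 counts in normal lung and 9, 3 and 2 in SCC. The part of any of these in the levels of the mucins and Clca genes was not tested.

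**Figure D4:**
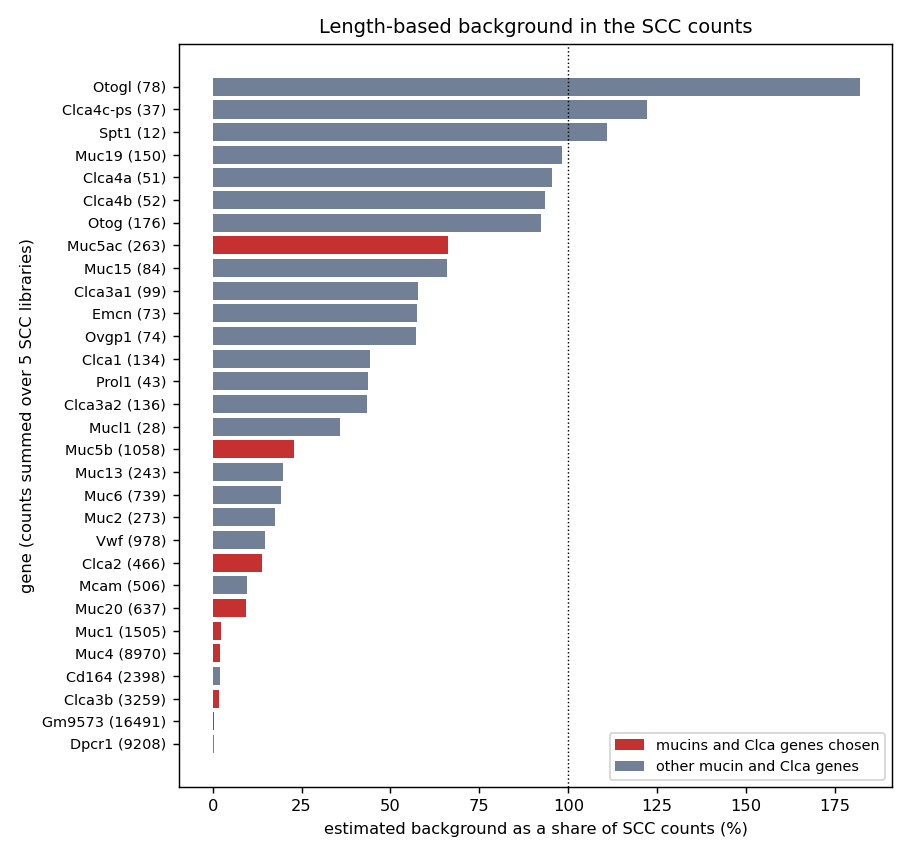
Estimated background as a percent of the counts summed over the 5 SCC libraries, for the 8 genes (red) and the 22 other mucin and Clca genes (grey), with those counts in brackets. Background reaches 66.2% for Muc5ac and is 0.513% for Gm9573, and the dotted line marks 100%.

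Other mucin and Clca family genes, from a list of 26, were in the table in 22 cases and passed the filter on low counts in 11. With the edgeR quasi-likelihood test and Benjamini-Hochberg adjustment, 5 of the 11 rose and 3 fell, with a median log2 difference of 1.43 against 0.07 over all genes. Of all genes tested 12.5% rose and 8.68% fell. This list and those that follow were chosen with earlier results of these data known, so their counts beside the shares of all genes are a description. With SCC 2 and SCC 5 alone 1 rose and 2 fell among 12 tested, against 4.14% and 5.16% of all genes. After subtraction 2 rose and 2 fell among 7 tested, against 8.25% and 6.82%. Background equalled at least 50% of the SCC counts in 11 of the 22 genes.

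Gel-forming Muc6, a mucin of glands and stomach, was read at 2.51, 10.9, 3.52, 5.79 and 22.6 CPM in normal lung and 185, 33.9, 108, 152 and 27.8 CPM in SCC. It rose by 3.39 (log2, SE 0.61, adjusted p = 2.3e-04), and the adjusted p was 0.257 with SCC 2 and SCC 5 alone. Muc2, the gel-forming mucin of intestine, rose from 1.93 ± 2.23 to 34.3 ± 20.1 CPM (SD, n = 5 each, log2 difference 4.07, SE 0.86, adjusted p = 0.00115 in edgeR), with an adjusted p of 0.206 in those 2 libraries. Both kept their call after subtraction, at log2 differences of 3.81 and 4.51. For Muc2 the transcript length used was 2926 bases, shorter than its 6939 coding bases, so the background subtracted from it may be too small. The transmembrane mucin Muc13 rose by 2.99 (SE 0.91, adjusted p = 0.0187), a call lost without normal 1 or SCC 1, after subtraction (adjusted p = 0.0795) and with SCC 2 and SCC 5 alone (adjusted p = 0.318). Without normal 4 the difference was 5.44. Otog, an inner ear glycoprotein of mucin type, rose by 2.86 (adjusted p = 0.0245), a call lost without any one of normal 1, normal 2, normal 3, SCC 3 and SCC 4, with background at 92.4% of its SCC counts and 0.54 as its log2 difference with SCC 2 and SCC 5 alone (2.23 without SCC 4). The fifth gene that rose was Clca3a2, given above.

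Dpcr1, the older symbol of Mucl3, lies beside Gm9573 on chromosome 17 (chr17:35635752-35643695, minus strand). It was read at 2520, 4170, 730, 3980 and 3260 CPM in normal lung and 1620, 456, 452, 772 and 1720 CPM in SCC, the opposite direction to its neighbour. Normal 3 lay within the SCC range, so the groups overlapped. Dpcr1 fell by 1.67 (log2, SE 0.54, adjusted p = 0.0277). The call was lost without normal 4 or SCC 2, in the fit on SCC 2 and SCC 5 (adjusted p = 0.215) and after subtraction (adjusted p = 0.1). Vwf, the clotting factor of endothelium that shares domains with gel-forming mucins, fell by 2.4 (SE 0.38, adjusted p = 4.8e-05), and Mcam, an endothelial and smooth muscle adhesion molecule also called Muc18, fell by 1.4 (SE 0.34, adjusted p = 0.00415). Muc15 had 0 counts in normal lung and 84 in SCC, too low to be tested in the main fit. Its measured level was at least 51.4-fold higher when normal lung is set to the limit of 3 counts over its 5 libraries. That value is no lower limit once background is counted, which equalled 65.9% of the SCC counts. Muc15 was the gene called higher in the edgeR fit with SCC 2 and SCC 5 alone (log2 difference 7.12, SE 1.86, adjusted p = 0.0197).

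Genes of the mucous cell programme and of granule secretion (37 named, 27 tested) moved in both directions. In the all-gene edgeR fit 8 rose and 6 fell, against 12.5% and 8.68% of all genes, with a median log2 difference of 0.1. Itln1, an intelectin of goblet cells, rose by 5 (SE 0.81, adjusted p = 7.45e-05), and Fcgbp, a mucus-binding protein, rose by 3.98 (SE 0.72, adjusted p = 2.2e-04). P2ry2, the ATP receptor that triggers mucin release, rose by 2.11 (SE 0.58, adjusted p = 0.0096), and Ern2, an endoplasmic reticulum stress sensor of mucous cells, by 3.95 (adjusted p = 0.0157), a call lost without SCC 1. Leaving out 1 normal library gave 5.4 for Ern2 (without normal 2) and 5.6 for Itln1 (without normal 1). Atp12a and Dmbt1 rose by 3.78 and 3.77, with background at 45% and 78.1% of their SCC counts, and Dmbt1 was at 4.8 without normal 5. Among genes that fell, Creb3l1, a transcription factor of the secretory pathway, fell by 1.81 (SE 0.43, adjusted p = 0.0029), and Marcks, which links granules to the cytoskeleton, by 1.39 (SE 0.41, adjusted p = 0.0155). Snap23, Ano1, Unc13d and Unc13b, which serve granule fusion or chloride secretion, fell by 1.3, 1.04, 1.29 and 1.26 at adjusted p of 0.0308 to 0.047. These calls were lost on leaving out normal 3 (each of them), normal 4 (Snap23, Unc13d), SCC 2 (Ano1, Unc13d, Unc13b), SCC 3 (Snap23, Ano1, Unc13d), SCC 4 (Snap23, Ano1) or SCC 5 (Unc13d, Unc13b), at adjusted p of at most 0.079. Background equalled 100% of the SCC counts of Unc13b and 36% of those of Unc13d. With SCC 2 and SCC 5 alone 1 gene of 30 rose and 4 fell, against 4.14% and 5.16% of all genes, and of the genes named Fcgbp, Creb3l1, Marcks and Unc13b kept their calls. After subtraction 6 of 22 rose and 4 fell, against 8.25% and 6.82% of all genes. Snap23 and Ano1 lost their calls, and Atp12a, Dmbt1 and Ern2 were too low to be tested.

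Enzymes of mucin-type O-glycosylation (42 named, 31 tested) had 9 genes that rose and 2 that fell, against 12.5% and 8.68% of all genes, with a median log2 difference of 0.63. B3galt5, a galactosyltransferase, rose by 5.21 (SE 0.84, adjusted p = 7.03e-05), and Fut2, the secretor fucosyltransferase, by 5.15 (SE 1.03, adjusted p = 6.65e-04). B3galt5 was at 5.89 without normal 5, and Fut2 at 4.45 without SCC 3. Galnt7, a GalNAc transferase that extends glycosylation of peptides already carrying GalNAc, rose by 2.05 (SE 0.5, adjusted p = 0.00393), and St3gal4, a sialyltransferase, by 1.51 (SE 0.4, adjusted p = 0.00747), a call lost without normal 2 or normal 5. B3gnt3 and B4galnt3 rose by 3.18 and 3.77, with background at 19.9% and 53.1%, and B4galnt3 was at 4.48 without normal 2. Galnt13 fell by 1.9 (SE 0.47, adjusted p = 0.00426) and Chst2, a sulfotransferase, by 1.38 (SE 0.45, adjusted p = 0.0294), a call lost without SCC 2. The groups of Galnt13 overlapped, with 140 CPM in normal 3 and 220 CPM in SCC 5. With SCC 2 and SCC 5 alone 4 of 32 rose and 1 fell, against 4.14% and 5.16% of all genes, and Fut2, B4galnt3 and Galnt13 lost their calls. After subtraction 4 of 24 rose and 2 fell, against 8.25% and 6.82%, and Fut2, B3gnt3 and B4galnt3 were too low to be tested.

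Partners and sheddases of transmembrane mucins and inducers of mucin genes (38 named, 35 tested) had 11 genes that rose and 2 that fell, against 12.5% and 8.68% of all genes, with a median log2 difference of 0.72. This list too was chosen with earlier results of these data known, so its counts are a description. Trp63, named next, is also on the squamous and basal marker list. Trp63 rose from 2.07 ± 1.63 to 141 ± 84 CPM (SD, n = 5 each, log2 difference 6.05, SE 0.57, adjusted p = 4.55e-08 in edgeR). Ereg, a ligand of the EGF receptor family, rose by 8.02 (SE 1.02, adjusted p = 3.52e-06) from 1 count in normal lung, and was at 9.36 without normal 2 and 7.36 without normal 3. Msln, mesothelin, a binding partner of Muc16 and also a mesothelial marker, rose by 4.59 (SE 0.62, adjusted p = 7.34e-06), or 3.72 without SCC 2. Ehf and Elf3, epithelial ETS transcription factors, rose by 3.72 and 3.27, and Lgals3, a lectin that binds mucin sugars, by 2.49. Dpp4 fell by 2.97 (SE 0.53, adjusted p = 1.82e-04), with background at 71.7% of its SCC counts, and Nkx2-1, the lung lineage transcription factor, by 1.64 (SE 0.42, adjusted p = 0.00553). The groups of Nkx2-1 overlapped, with 122 CPM in normal 3 and 177 CPM in SCC 2. With SCC 2 and SCC 5 alone 11 of 35 rose and 1 fell, against 4.14% and 5.16% of all genes, and Nkx2-1 lost its call (adjusted p = 0.0613). After subtraction 9 of 32 rose and 2 fell, against 8.25% and 6.82%, and Ereg was too low to be tested.

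**Figure D5:**
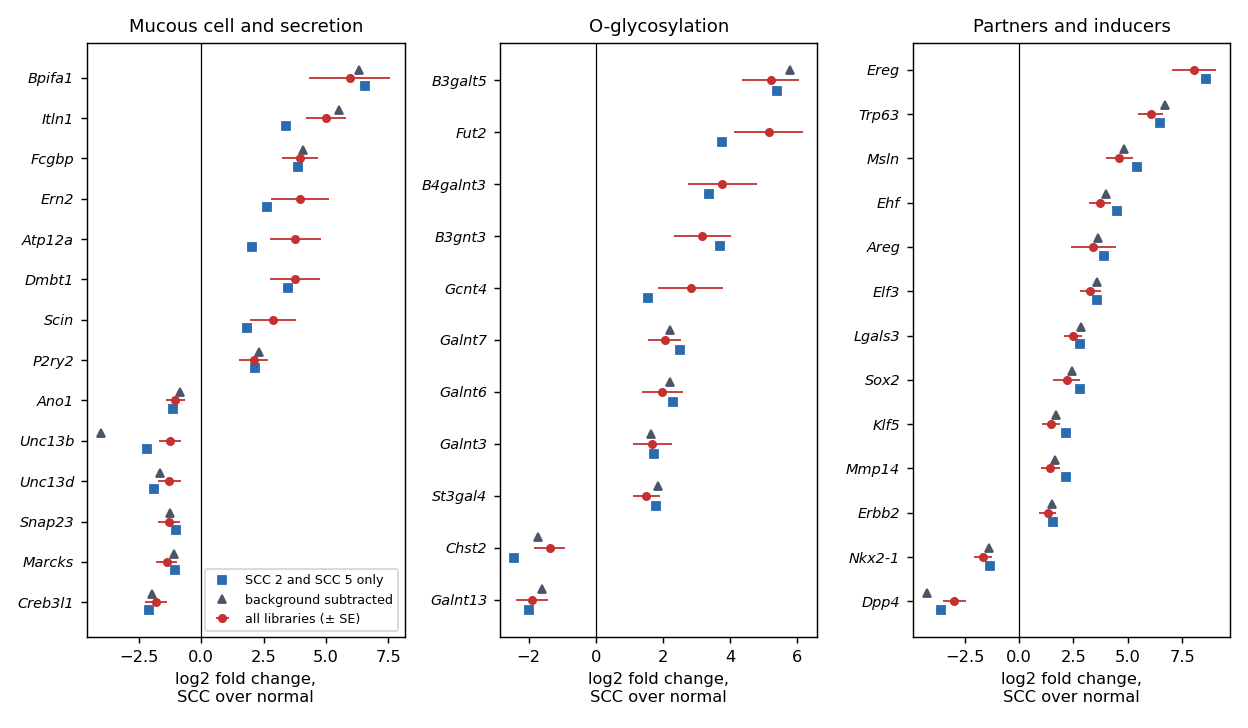
Log2 fold change, SCC over normal lung, of the genes past the adjusted p threshold in the 3 lists, with SE from the fit on all libraries (red), and the values with SCC 2 and SCC 5 alone (squares) and after background subtraction (triangles, where tested). All values keep their side of 0 for the genes shown, and Unc13b lies farthest from its red point after subtraction.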

How the data were processed

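RNA-seq of 5 normal lung and 5 lung SCC libraries was used as deposited, as whole-number counts per gene symbol with no normalization. Per the submitters' processing notes the build was mm10 and the tools included HTSeq 0.6.1, TopHat2 2.0.1 and cutadapt 1.9.1, besides DESeq2. For the annotation, strand setting and handling of multiply placed reads the sources used here give nothing. Library totals ran from 1004105 to 6817106 counts, and floors cover counting error only.

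All genes were fitted with edgeR 4.0.16 (R 4.3.3, limma 3.58.1; TMM, filterByExpr by group, robust quasi-likelihood test, no covariate), tested on simulated data first. Calls were made at an adjusted p (Benjamini-Hochberg) under 0.05. The SE is the log2 fold change over the square root of F. Levels are CPM of total counts. Gene models were those of GENCODE M21 (GRCm38), which matched 24026 of 24421 genes, 650 of them by an older symbol. The receptor signal used Olfr, Vmn1r, Vmn2r and Taar genes, set down to the 98th percentile. The background length, that of the transcript with the longest coding part, replaced the union of all exons after the counts of calls from the latter had been seen. Results of both are given.

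The genes, the lists and the alternatives were chosen with earlier results of these data known. From each list up to 6 called genes per direction were named, by smallest p. For each mucin or Clca gene the 2 nearest profiles were named, among tested genes without placeholder symbols such as Gm or Rik names. Every other mucin or Clca gene could be named with its counts. Spdef and the trefoil factors were named after their values were seen. Alternatives were DESeq2 size factors, no filter, the DESeq2 1.42.0 Wald test, SCC 2 and SCC 5 alone, background subtraction and leaving out each library. For levels per kb the alternative was the length of all exons.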

Additional observations from a re-analysis of the deposited data

Results flagged for a closer look

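Of 88 combinations of gene and group tested for a library far from the other 4, 7 had one. A chance rate of about 1 in 20 holds for normally distributed values and not for low counts such as those of Ereg. Muc20 was read at 2.31 CPM in normal 4, below the 13.3 to 23.9 CPM of the other normal libraries. Clca2 was read at 105 CPM in SCC 5, above the 25.7 to 38.7 CPM of the other SCC libraries. Clca3a2 stood at 18.7 CPM in SCC 3, where the others had 12.2 to 12.9 CPM. Muc13 had 12.7 CPM in normal 4, against 0.147 to 0.716 CPM in the other normal libraries. Dpcr1 had 730 CPM in normal 3, against 2520 to 4170 CPM. Unc13b had 26.8 CPM in normal 5, against 62.9 to 76.6 CPM. Ereg had 0.684 CPM in normal 2, which is 1 count, and 0 in the others. Normal 4 stood apart for both Muc20 and Muc13, in opposite directions.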

How the results depend on the processing

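No log2 difference of the 6 genes that did not overlap between the groups, and none of the 36 named list genes, changed sign under any alternative run, while Muc5b, whose groups overlapped, went from 0.14 to -0.29 with no filter and -0.64 with SCC 2 and SCC 5 alone. For all genes, 1645 were higher and 1146 lower in SCC. The higher count was 5470 with no filter, 6378 with the DESeq2 Wald test, 592 with SCC 2 and SCC 5 alone, 961 after subtraction and 706 with the all-exon length. The lower count was 2072, 738 and 681 with no filter, SCC 2 and SCC 5 alone and the all-exon length. Other mucin and Clca genes that rose numbered 16 with no filter, 15 with DESeq2, 1 with SCC 2 and SCC 5 alone, and 2 after either subtraction. Mucous cell genes that rose numbered 1 with SCC 2 and SCC 5 alone and 5 with the all-exon length, and those that fell 3 with size factors, 11 with no filter and 2 with the all-exon length. O-glycosylation genes that rose numbered 19 with DESeq2, 4 with SCC 2 and SCC 5 alone, 4 after subtraction and 2 with the all-exon length, and those that fell 4 with no filter, 1 with SCC 2 and SCC 5 alone and 0 with the all-exon length. For partners and inducers 1 gene fell with SCC 2 and SCC 5 alone. The log2 difference of Muc5ac was 1.67 with SCC 2 and SCC 5 alone, that of Clca3b 9.78 and 9.79 after the 2 subtractions, and that of Clca2 7.43 with the all-exon length. With 1 library left out, mucous cell genes that fell ranged from 2 (without normal 3) to 8, with 3 without SCC 2, O-glycosylation genes that fell from 1 (without SCC 2) to 3, and the Clca2 difference from 5.69 to 7.5. The causes were not tested. Of the 36 named list genes, 25 kept their call whichever library was left out, 18 had it with SCC 2 and SCC 5 alone, 23 after subtraction (9 were not tested) and 16 in both. No paired analysis was possible because normal lung came from untreated mice and SCC from mice given NTCU, so the groups share no animal.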
